A study of Arabidopsis thaliana with 40 samples.

Results

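Polysome RNA of submerged seedlings was compared between the line K48M and its wild type Col-0 in 4 of the 40 samples of the series. The 4 libraries were chosen by their labels: 2 of K48M and 2 of Col-0, with 1 of each genotype in each of the library sets named ST_FR and LTF_GG. The ST_FR library of Col-0 was placed by its title and its column header; the authors' index of libraries does not list it for this group. The starting material was the entire seedling of Arabidopsis thaliana at an age of 9 days, kept under water in darkness for 3 h. K48M overexpresses SnRK1.1, also called KIN10, with the K48M amino acid change, and does so in the Col-0 background with its own KIN10 gene present. No label states the promoter of the transgene or the number of transgenic lines. The RNA was bound to heavy polysomes, that is, mRNA carrying many ribosomes. Dark controls (3 h of darkness in air) and total mRNA of both genotypes enter the fit, where they also set the estimated spread between replicates, and are otherwise used to show where the comparison differs from them. Both K48M total libraries of LTF_GG were left out, since their titles and their column headers name opposite conditions.

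SnRK1 is a kinase that plants activate when energy is short, as under water, where respiration stalls. It holds a catalytic subunit, KIN10 or KIN11, with regulatory beta and gamma subunits, and it is itself activated by the kinases GRIK1 and GRIK2. It is known to raise genes of catabolism and to lower genes of growth. The lysine changed in K48M lies in the ATP-binding site of the kinase, and such kinase-dead forms are used to interfere with the native enzyme. The title of the series names a relay from SnRK1 to eIFiso4G1, a scaffold of translation initiation, that acts on the translation of specific mRNAs under submergence. A genotype difference in polysome RNA holds both the mRNA level and its loading on ribosomes, so it is set beside total mRNA below.

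The reference sequence around the changed codon is shown because it defines the line. In the coding strand of KIN10 (AT3G01090, minus strand of chromosome 3), codons 37 to 59 lie within 1 exon at chr3:33801-33869 of TAIR10.1, as read from RefSeq, and the capitals mark codon 48, a lysine, in the protein of 512 residues.
KIN10 codons 37 to 59: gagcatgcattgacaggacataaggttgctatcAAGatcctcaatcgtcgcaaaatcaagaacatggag
The deposited counts do not tell the changed codon from the native one, so reads of the transgene and of the native gene were counted together.

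KIN10, which K48M was made to overexpress, was the gene that set the genotypes apart, so this difference serves as a check of the labels. The KIN10 level was 29.9 and 28.5 CPM (reads relative to the library's total, scaled by TMM factors) in Col-0 of ST_FR and LTF_GG. It was 393 and 419 CPM in K48M. Both K48M libraries lay far above both Col-0 libraries, and the libraries of 1 genotype lay close together. The log2 difference was 3.79 ± 0.22 (standard error, here and below; 95% interval 3.31 to 4.27; edgeR quasi-likelihood test, Benjamini-Hochberg-adjusted p = 3.73e-06). It was the single gene called among 19024 tested (0.00526%), at an adjusted p under 0.05. No gene was called lower (0 of 19024, 0%). At an unadjusted p under 0.05 the counts were 211 higher (1.11%) and 220 lower (1.16%), together 431 (2.27%). DESeq2 on the same genes and design also called KIN10 alone, and gave 186 genes below 0.05 before adjustment. With no true difference a share of 0.05 would pass that threshold. Both counts lie below it, so they are no sign of further differences. The spread over 14 libraries was wider than in the 4 alone (18.8% against 11.1%, below), so differences could be missed.

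**Figure D1:**
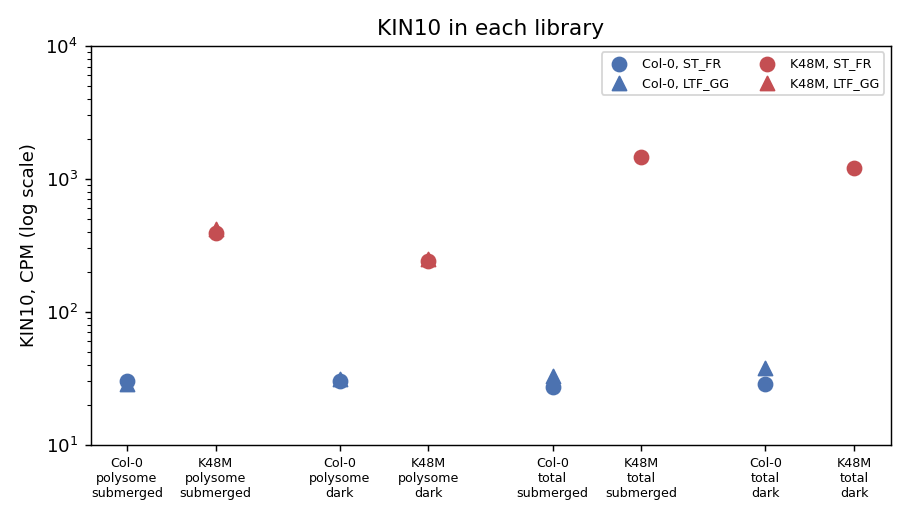
KIN10 level in CPM on a log scale, 1 point per library, circles for ST_FR and triangles for LTF_GG, blue for Col-0 and red for K48M. The submerged polysome libraries of K48M sit at 393 and 419 CPM, above those of Col-0 at 28.5 and 29.9 CPM and below the K48M total libraries at 1200 and 1450 CPM.

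Reads of KIN10 fell on each of its 3 annotated transcript models. In K48M, model 1 held 956 and 654 reads in ST_FR and LTF_GG, model 2 held 393 and 596, and model 3 held 483 and 692. In Col-0 the same models held 52 and 95, 61 and 26, and 52 and 38 reads. Each model was thus higher in each K48M library, but almost all of these reads match several models, since no model had more than 2 unique reads in any of the 4 libraries, so the split between models carries no information on isoforms.

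On polysomes the KIN10 difference was below that in total mRNA, by an amount that passed the test in 1 of 2 tools. In submerged total mRNA KIN10 was at 27.0 and 33.0 CPM in Col-0 and at 1450 CPM in the 1 K48M library used, a log2 difference of 5.66 ± 0.26. The polysome difference minus the total difference was −1.87 ± 0.32 (edgeR unadjusted p = 5.51e-05), which did not pass adjustment over all genes (edgeR adjusted p = 0.999) and did with DESeq2 (−1.88 ± 0.36, adjusted p = 0.00344). In the dark the polysome libraries held 30.1 and 31.2 CPM in Col-0 and 242 and 248 CPM in K48M, a log2 difference of 3.00 ± 0.22 (edgeR adjusted p = 6.18e-05). The submerged value exceeded the dark one by 0.79 ± 0.29 (edgeR unadjusted p = 0.0175, adjusted p = 1).

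For the other subunits and the activating kinases of SnRK1 no gene was called. Of 10 members, 9 were tested, and the 8 besides KIN10 ran from −0.13 to 0.23 on the log2 scale (median 0.08), with a smallest edgeR unadjusted p of 0.399. KIN11, the second catalytic subunit, was at 17.0 and 35.5 CPM in Col-0 and 20.4 and 28.5 CPM in K48M (−0.06 ± 0.24). The beta subunit gene AKINBETA1 was at 224 and 191 CPM in Col-0 and 197 and 182 CPM in K48M (−0.13 ± 0.26), and the gamma-type KING1 at 465 and 382 against 424 and 367 CPM (−0.10 ± 0.20). For both of these genes the values of the genotypes overlapped. KIN12, another catalytic gene, had no read in the 4 libraries and was not tested.

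EIFISO4G1, the translation factor named in the title, did not differ beyond its error. It was at 71.4 and 67.2 CPM in Col-0 and at 69.2 and 60 CPM in K48M, so that the groups overlapped (−0.10 ± 0.22). Of 26 listed initiation factor genes 25 were tested and 0 were called. In both library sets 16 were lower in K48M (64%) and 2 were higher (8.0%), against 25.9% and 26.7% of all genes tested, with a median of −0.10 beside 0.01 over all genes. PAB2, a poly(A)-binding protein, was at 712 and 429 CPM in Col-0 and at 359 and 383 CPM in K48M (−0.56 ± 0.24). EIF4E1, the cap-binding protein, was at 50.4 and 47.5 against 68.1 and 61.9 CPM (0.41 ± 0.19), with both K48M libraries above both Col-0 libraries. EIF4A1, an RNA helicase of initiation, was at 466 and 370 against 353 and 348 CPM (−0.24 ± 0.20). EIF3H, a subunit of eIF3, was at 216 and 140 against 206 and 131 CPM (−0.09 ± 0.19).

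The precision of the comparison bounds how much could have been seen. Col-0 had 5945943 and 4970236 gene reads and K48M had 4512370 and 4438914. The median standard error was 0.30. Of the 14297 genes with a mean of at least 5 CPM, those with a value near 0 have no interval. For 82.2% of the others the 95% interval lay within −1 to 1, that is, within a doubling or halving. Across all 14297 genes the log2 ratios of the ST_FR and LTF_GG pairs (K48M to Col-0) correlated at r = 0.09. That value is a description across genes, which are not independent replicates. The median absolute ratio was 0.22 in ST_FR and 0.17 in LTF_GG. Ribosomal RNA took 2.2% and 3.87% of the gene reads in Col-0 and 0.874% and 13.1% in K48M, so the K48M libraries were both the lowest and the highest of the 4. At a mean of at least 5 CPM, 32 genes differed by more than 1 on the log2 scale, 26 higher and 6 lower, and 17 of them in the same direction in both sets.

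**Figure D2:**
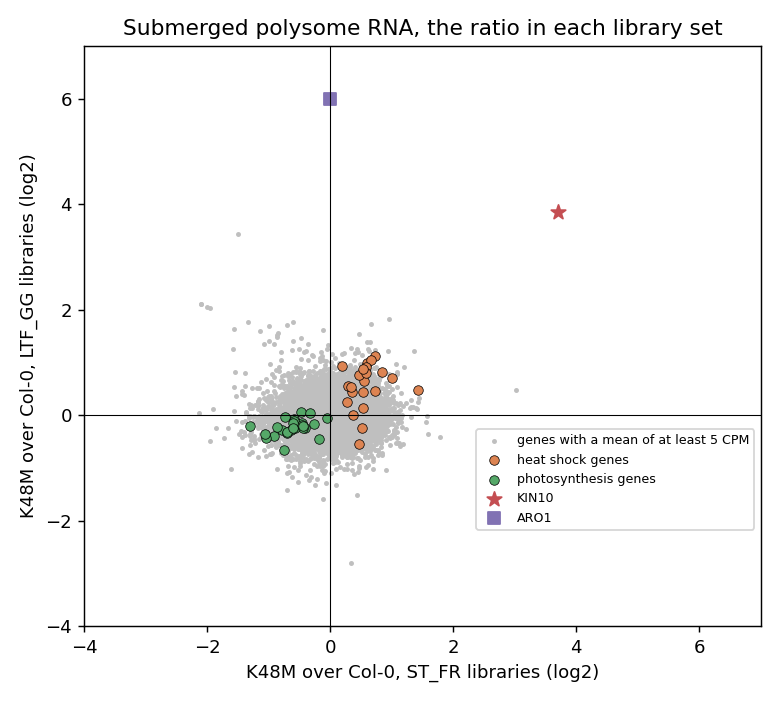
Log2 ratio of K48M to Col-0 in submerged polysome RNA, the ST_FR pair on the x axis and the LTF_GG pair on the y axis, 1 grey point per gene with a mean of at least 5 CPM. KIN10 stands alone at 3.70 and 3.86, the heat shock genes lie mostly in the upper right and the photosynthesis genes mostly in the lower left part, and ARO1, with 0 reads in 3 of the 4 libraries, stands apart in the LTF_GG pair alone.

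The number of calls depended on which libraries estimated the spread between replicates. In the fit of the 8 polysome libraries 2 genes were called higher (0.0105%), KIN10 and ARO1. In the fit of the 4 submerged polysome libraries alone, with the library set as block and 1 residual degree of freedom, 62 of 19024 genes were called (0.326%), 32 higher (0.168%) and 30 lower (0.158%). The biological coefficient of variation was 11.1% in that fit, 14.8% over the polysome libraries and 18.8% over all 14 libraries. Of the 62 genes, 59 differed in the same direction in both sets and 44 had an unadjusted p under 0.05 in the fit of 14 libraries. The 14-library fit holds the same 4 libraries, and the 4-library fit favours genes whose 2 pairs agree. Neither count is separate support for the calls. Calls of the 4-library fit are named as such below and none but KIN10 was called in the 14-library fit.

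Of the lists examined, the heat shock genes had the highest share of members that were higher in K48M in both library sets. Small heat shock proteins hold unfolding proteins, and HSP70, HSP90 and HSP101 refold or disaggregate them. All 22 listed genes were tested, 0 were called, and 10 were higher at an unadjusted p under 0.05 (45.5%, beside 1.11% of all genes). In both library sets 19 of the 22 were higher in K48M (86.4%, beside 26.7% of all genes) and 0 were lower in both. The members are related genes and not independent observations, and the list was chosen with earlier results of these data known. Their median log2 difference was 0.60 (0.54 in ST_FR and 0.60 in LTF_GG), beside 0.01 over all genes. In the 4-library fit 8 of the 22 were called, all higher, beside 0.168% of all genes.

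The cytosolic small heat shock proteins were among these. HSP17.6II was at 123 and 26.9 CPM in Col-0 and at 247 and 43.8 CPM in K48M (0.87 ± 0.22, edgeR unadjusted p = 0.00159, adjusted p = 1). HSP17.6A was at 411 and 70.8 against 648 and 147 CPM (0.88 ± 0.33), and HSP17.4 at 238 and 40.5 against 358 and 76.6 CPM (0.76 ± 0.32). In each gene the K48M library exceeded the Col-0 library of its own set, while the sets differed more than the genotypes did. The list's median ST_FR level was 4.36 times the LTF_GG level in Col-0 and 3.98 times in K48M, and the genotypes overlapped when the sets were pooled.

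Members of other compartments lay on the same side. The plastid protein HSP21 was at 82.9 and 11.7 CPM in Col-0 and at 138 and 25.7 CPM in K48M (0.92 ± 0.29). HSP23.6-MITO of mitochondria was at 110 and 22.2 against 166 and 44.7 CPM (0.82 ± 0.31), and ATHSP22.0 of the endoplasmic reticulum at 56.6 and 12.9 against 83.1 and 20.3 CPM (0.59 ± 0.23). HSP70-4, a cytosolic HSP70, was at 221 and 55.9 against 270 and 82.0 CPM (0.43 ± 0.32). The 3 members that did not point the same way in both sets were HSP26.5 (0.52 and −0.25), the factor HSFA7A (0.47 and −0.54) and the immunophilin ROF1 (0.37 and 0.00). The HSP17 genes are close copies of each other, and with unique reads alone the list's median was 0.62 over 20 genes.

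In dark polysome RNA the same list did not share this direction. Its median was −0.17, with 7 of 22 genes above 0 in the ST_FR pair (median −0.43) and 12 of 22 in the LTF_GG pair (0.04). Some members had almost no reads there, so their dark ratios give no direction. HSP21 had 1 and 0 reads in Col-0 and 1 and 2 in K48M, and ATHSP22.0 had 0 and 1 against 1 and 0. Others were well read, as HSP70-4 with 215 and 60 against 246 and 101 reads. In submerged total mRNA 21 of 22 lay above 0 in the ST_FR pair, with a median of 0.36 there. The fitted median, with 1 K48M library, was 0.32. Of the cytosolic examples above, HSP17.6II had a fitted total value of 0.14, HSP17.6A of −0.23 and HSP17.4 of −0.28. In the ST_FR total pair itself their values were 0.16, 0.01 and 0.13. The fitted values set 1 K48M library against Col-0 of both sets, so the negative signs do not show a lower total level. For the difference between submerged and dark polysome values 0 of 19024 genes were called (0%; 241, or 1.27%, were below 0.05 before adjustment, and the DESeq2 count was 0), and 3 of the 22 had an unadjusted p under 0.05. These were HSP17.6II (1.94 ± 0.52), HSP23.6-MITO (2.62 ± 0.86) and HSP17.6B (0.96 ± 0.37), whose dark levels are low: HSP17.6II had 12 and 8 reads in Col-0 and 12 and 2 in K48M.

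**Figure D3:**
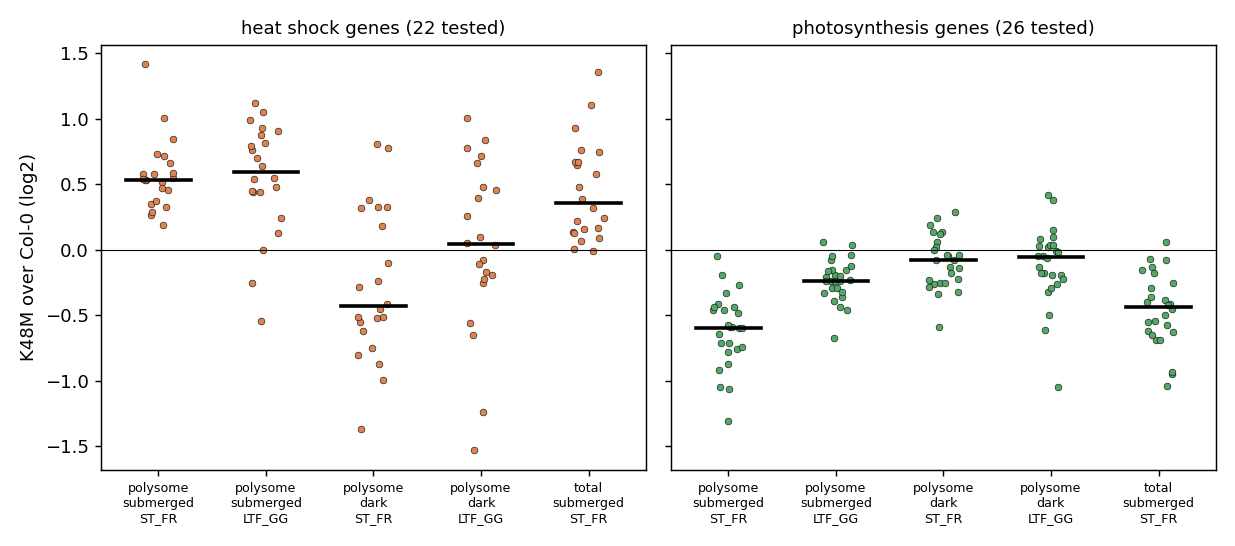
Log2 ratio of K48M to Col-0 for each tested heat shock gene (left) and photosynthesis gene (right) in each pair of libraries, with the median as a black bar. Heat shock genes lie mostly above 0 in the submerged pairs and on both sides of 0 in the dark pairs, and photosynthesis genes lie mostly below 0 in the submerged pairs.

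Promoters of the heat shock list were read because heat shock factors bind repeats of GAA and TTC in them. The motifs GAANNTTC and TTCNNGAA, each of which reads the same on both strands and which may overlap, were searched in the 300 bases before the annotated start of each gene. At least 1 was found in 10 of the 22 promoters (45.5%) and in 19.0% of 18478 promoters of tested genes, and 2 or more in 27.3% and 2.44%. The promoters of HSP17.4 and HSP17.6C are printed as examples with 4 and 2 motifs, which are in capitals, from chr3:16984868-16985167 on the minus strand and chr1:19979999-19980298 on the plus strand of TAIR10.1, from RefSeq.
HSP17.4: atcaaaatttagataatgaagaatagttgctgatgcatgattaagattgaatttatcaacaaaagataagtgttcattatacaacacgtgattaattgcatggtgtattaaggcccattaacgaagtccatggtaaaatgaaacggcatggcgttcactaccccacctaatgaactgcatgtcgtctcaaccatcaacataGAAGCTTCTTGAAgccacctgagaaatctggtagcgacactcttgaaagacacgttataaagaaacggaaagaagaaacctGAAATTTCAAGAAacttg
HSP17.6C: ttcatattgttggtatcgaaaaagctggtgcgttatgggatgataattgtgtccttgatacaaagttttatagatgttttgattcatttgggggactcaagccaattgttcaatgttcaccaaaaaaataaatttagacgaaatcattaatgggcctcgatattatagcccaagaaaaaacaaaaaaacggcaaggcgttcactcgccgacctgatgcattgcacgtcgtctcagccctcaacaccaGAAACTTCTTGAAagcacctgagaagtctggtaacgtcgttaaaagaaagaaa
HSP17.6C was at 125 and 22.8 CPM in Col-0 and at 226 and 40.6 CPM in K48M (0.85 ± 0.31). The promoter of HSP17.6II holds neither motif in this window. Whether the motifs bear on the difference in level was not tested.

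The photosynthesis genes had the highest share of members that were lower in K48M in both library sets. They encode the light-harvesting proteins, Rubisco small subunits and parts of both photosystems, and all are transcribed in the nucleus. All 26 were tested, 0 were called, and 24 were lower in K48M in both sets (92.3%, beside 25.9% of all genes), with 0 higher in both. These members, too, are not independent observations, and the list was chosen in the same way. The median was −0.38, and it was −0.60 in ST_FR and −0.24 in LTF_GG. In the 4-library fit 2 of the 26 were called, both lower, beside 0.158% of all genes.

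The light-harvesting gene LHCB1.3 was at 13000 and 7020 CPM in Col-0 and at 7620 and 5740 CPM in K48M (−0.51 ± 0.30). LHCB1.4 was at 540 and 637 against 260 and 495 CPM (−0.70 ± 0.30) and LHCB2.3 at 139 and 135 against 81.8 and 85.0 CPM (−0.71 ± 0.38), with both K48M libraries below both Col-0 libraries in each. The LHCB2.3 value was −1.32 without the LTF_GG library of K48M and −0.16 without that of Col-0. RBCS1A, a Rubisco small subunit, was at 12500 and 4820 against 8260 and 4330 CPM (−0.39 ± 0.26), and RBCS3B, another, at 11800 and 8110 against 8430 and 8460 CPM (−0.20 ± 0.27), where the LTF_GG libraries were nearly level. The listed genes summed to 102100 and 58420 CPM in Col-0 and to 64980 and 51820 CPM in K48M. In dark polysome RNA their median was −0.11 and in submerged total mRNA −0.31. Genes of 1 family share reads here, and with unique reads the median was −0.36.

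Tissue markers were read beside these values, since seedlings were taken whole. Of 10 root marker genes 0 were called, 5 were lower and 0 higher in both sets, with a median of −0.42 (−0.62 in ST_FR and −0.10 in LTF_GG). BGLU23, a beta-glucosidase that makes up most of this sum, was at 2690 and 1120 CPM in Col-0 and 2160 and 1350 CPM in K48M (−0.04 ± 0.26). PHT1;1, a phosphate transporter, was at 153 and 228 against 92.1 and 232 CPM, and CASP1, of the Casparian strip, at 52.9 and 79.4 against 39.7 and 69.7 CPM (both −0.29). Their summed level was 2932 and 1461 CPM in Col-0 and 2317 and 1677 CPM in K48M. The 7 seed storage markers had at most 3 reads in any of the 4 libraries and were not tested. In bulk seedlings, fewer cells of a type and less RNA per cell cannot be told apart, and the part of tissue make-up in the photosynthesis values was not tested.

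**Figure D4:**
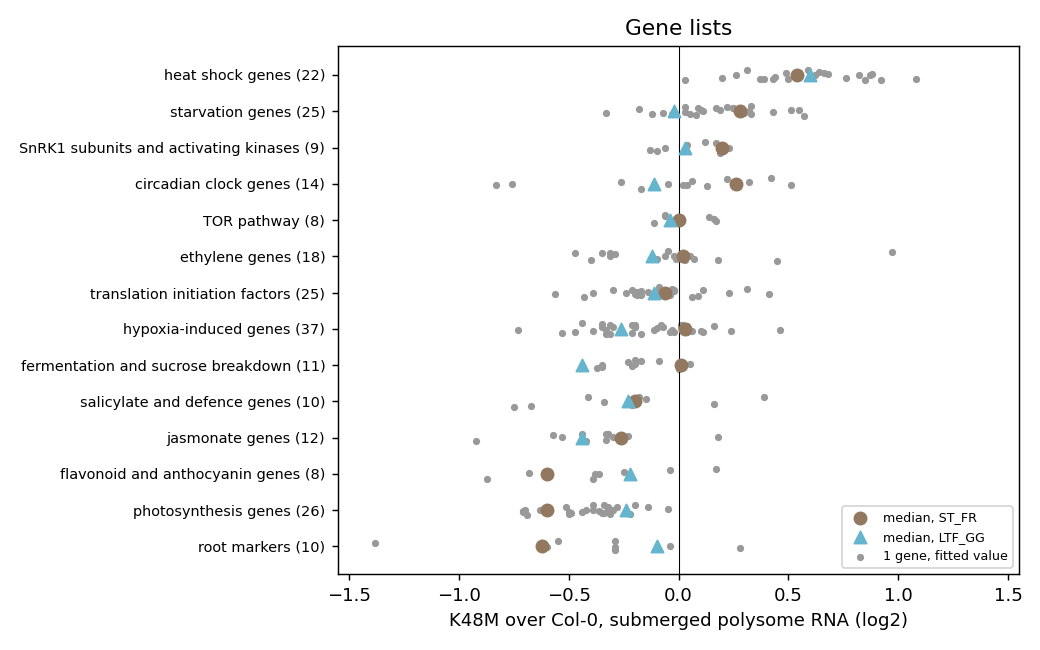
Log2 difference between K48M and Col-0 in submerged polysome RNA for the tested members of each gene list (grey points, members beyond 1.5 and KIN10 not drawn), with the list's median in ST_FR (circle) and LTF_GG (triangle) and the number tested in brackets. The heat shock medians are 0.54 and 0.60, and those of the photosynthesis genes −0.60 and −0.24.

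No gene of low oxygen metabolism was called. These genes carry the fermentation that replaces respiration under water. Of 13 fermentation and sucrose breakdown genes 11 were tested and 0 called (median −0.20). The median was 0.01 in ST_FR and −0.44 in LTF_GG, so the 2 sets did not give the same picture. ADH1, alcohol dehydrogenase, was at 2180 and 2780 CPM in Col-0 and at 2470 and 2010 CPM in K48M (−0.17 ± 0.27). PDC1, pyruvate decarboxylase, was at 608 and 1060 against 618 and 718 CPM (−0.35 ± 0.39), and the sucrose synthase SUS1 at 671 and 1270 against 624 and 877 CPM (−0.35 ± 0.27). AlaAT1, alanine aminotransferase, was at 843 and 833 against 850 and 620 CPM (−0.20 ± 0.22). In ADH1, PDC1, SUS1 and AlaAT1 the values of the genotypes overlapped.

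Among 37 hypoxia-induced genes, of which some are also in the previous list, 0 were called. In both sets 16 were lower (43.2%) and 5 higher (13.5%), beside 25.9% and 26.7% of all genes, with a median of −0.11. HB1, a haemoglobin that scavenges nitric oxide, was at 4650 and 3950 CPM in Col-0 and 4380 and 3300 CPM in K48M (−0.20 ± 0.49), and AT4G27450 at 5380 and 3820 against 5060 and 3550 CPM (−0.10 ± 0.23). The RING protein gene AT5G42200 was at 34.3 and 28.7 CPM in Col-0 and at 22.1 and 16 CPM in K48M (−0.73 ± 0.22), with both K48M libraries below both Col-0 libraries. The authors' core hypoxia list, which they drew up on libraries of this series, had 0 called of 50, 23 lower and 7 higher in both sets and a median of −0.17. TIL, a temperature-induced lipocalin, was at 3700 and 1560 CPM in Col-0 and 3170 and 1300 CPM in K48M (−0.24 ± 0.25).

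Both further lists that the authors made from their own comparisons of these lines were read the same way and are not independent of the libraries. Of their 130 translationally raised genes 121 were tested and 0 called. In both sets 60 were lower in K48M (49.6%) and 18 higher (14.9%), with a median of −0.17. LBD41, a transcription factor induced by hypoxia, was at 761 and 1090 CPM in Col-0 and 520 and 804 CPM in K48M (−0.47 ± 0.44). Of their 955 genes dependent on SnRK1 and not on eIFiso4G1, 914 were tested and 0 called, with 354 lower (38.7%) and 130 higher (14.2%) in both sets and a median of −0.12. AT4G10270 was at 2410 and 1240 against 2090 and 1070 CPM (−0.21 ± 0.51), AT5G19120 at 911 and 1130 against 600 and 922 CPM (−0.44 ± 0.21), and GSTF9, a glutathione transferase, at 876 and 941 against 772 and 878 CPM (−0.14 ± 0.31). These shares lie above the 25.9% of all genes on the lower side and below the 26.7% on the higher side.

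No starvation gene, the usual readout of SnRK1, was called. They are raised in darkness when sugars run out. Of 25 tested, 0 were called, 10 were higher and 4 lower in both sets, with a median of 0.17 (0.28 in ST_FR and −0.02 in LTF_GG). SEN1, a senescence and darkness marker, was at 2580 and 2400 CPM in Col-0 and at 3470 and 2740 CPM in K48M (0.33 ± 0.34), so both K48M libraries were above both Col-0 libraries. DIN10, a raffinose synthase family gene, was at 1490 and 2670 against 1380 and 2420 CPM (−0.12 ± 0.26), and AT3G15450 at 1430 and 2660 against 1390 and 2450 CPM (−0.07 ± 0.28). In DIN10 and AT3G15450 the genotypes overlapped. The 8 genes of the TOR pathway, which promotes growth when energy is plentiful, had a median of −0.01 and ran from −0.11 to 0.17. RPS6A, a ribosomal protein phosphorylated downstream of TOR, was at 789 and 344 CPM in Col-0 and 695 and 393 CPM in K48M, its copy RPS6B at 373 and 249 against 347 and 245 CPM, and the kinase S6K1 at 56.4 and 45.5 against 56.1 and 44 CPM, and the genotypes overlapped in each.

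Among hormone and defence genes none was called. Over all genes tested, 25.9% were lower and 26.7% higher in both sets. Of 14 jasmonate genes 12 were tested and 0 called, with a median of −0.33 (−0.29 in dark polysome RNA). In both sets 9 were lower (75.0%) and 1 higher (8.33%). VSP2, a vegetative storage protein raised by jasmonate, was at 17.2 and 126 CPM in Col-0 and at 6.66 and 74.9 CPM in K48M (−0.92 ± 0.30), and it was called lower in the 4-library fit. Its value was −1.62 without the LTF_GG library of K48M and −0.57 without the ST_FR library of K48M. VSP1, a related protein, was at 36.6 and 42.7 against 22.1 and 36.2 CPM (−0.44 ± 0.32), and LOX2, a lipoxygenase of jasmonate synthesis, at 26.8 and 48.1 against 25.6 and 33.7 CPM (−0.30 ± 0.35). AOS, an enzyme of jasmonate synthesis, was at 24.1 and 27.1 against 18.0 and 16.6 CPM (−0.57 ± 0.26), with both K48M libraries below both Col-0 libraries. Of 12 salicylate and defence genes 10 were tested and 0 called (median −0.20, 5 lower and 1 higher in both sets). WRKY70, a defence transcription factor, differed by −0.75 ± 0.27 (−0.31 in ST_FR and −1.18 in LTF_GG). NPR1, the salicylate receptor, was at 36.1 and 53.1 CPM in Col-0 and 45.1 and 53.3 CPM in K48M (0.16 ± 0.27), and EDS1, a regulator of immunity, differed by −0.18 ± 0.22 (−0.21 in ST_FR and −0.14 in LTF_GG). Ethylene genes had 0 called of 18 tested, 7 lower (38.9%) and 3 higher (16.7%) in both sets and a median of −0.04. The ethylene-forming oxidase genes ACO4 and ACO1 were at 355 and 403 against 373 and 403 CPM and at 389 and 433 against 359 and 316 CPM. EBF2, which targets the ethylene factor EIN3 for degradation, was at 439 and 298 against 262 and 272 CPM (−0.40 ± 0.25).

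In 3 further lists no member was called. The shares in brackets stand beside 25.9% lower and 26.7% higher in both sets over all genes. Flavonoid genes had 8 of 11 tested, 3 lower (37.5%) and 0 higher in both sets and a median of −0.37 (−0.60 in ST_FR, −0.22 in LTF_GG). TT4, chalcone synthase, was at 81.6 and 24.4 CPM in Col-0 and at 38.4 and 19.6 CPM in K48M (−0.68 ± 0.30), and it was called lower in the 4-library fit. Its value was −1.26 without the LTF_GG library of K48M and −0.12 without the ST_FR library of K48M. TT5, chalcone isomerase, was at 25.6 and 18.5 against 23.2 and 24.6 CPM (0.17 ± 0.31), and F3H, a flavanone hydroxylase, at 7.61 and 5.02 against 4.94 and 4.53 CPM (−0.39 ± 0.33). Clock genes had a median of 0.05 over 14 genes, 2 higher (14.3%) and 3 lower (21.4%) in both sets. Their members with the highest CPM, PRR7, PRR5 and TOC1, differed by 0.22 ± 0.20, 0.27 ± 0.28 and 0.13 ± 0.26. Cytosolic ribosomal protein genes had a median of −0.04 over 83 tested of 90, with 25 lower (30.1%) and 16 higher (19.3%) in both sets. The members with the highest CPM, emb2386, AT5G20290 and AT5G02450, differed by 0.12 ± 0.26, −0.05 ± 0.22 and −0.12 ± 0.34.

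Organelle-encoded genes had medians of opposite sign in the 2 sets. Of 268 genes outside ribosomal RNA 83 were tested and 0 called. Their median was −0.43 in ST_FR and 0.56 in LTF_GG. The plastid genes ATCG00490, ATCG00470 and ATCG00340 had values of −0.99, 0.58 and −0.91 in ST_FR and 1.69, −0.98 and 1.34 in LTF_GG. Their summed level was 501 and 1375 CPM in Col-0 and 384 and 2463 CPM in K48M, and the K48M library of LTF_GG, with the highest sum, also had the highest share of ribosomal RNA. Its part in these values was not tested.

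Beyond the lists, the 11 genes with the smallest p on the higher side after KIN10 (mean of at least 5 CPM, same direction in both sets) had edgeR unadjusted p from 0.000286 to 0.0071 and an adjusted p of 1, so none was called. AT5G44572, for which the files give no function, was at 10.5 and 11.7 CPM in Col-0 and at 27.5 and 27.4 CPM in K48M (1.31 ± 0.27). In AT5G44572 both K48M libraries lay above both Col-0 libraries. The 11 genes were picked from these libraries for a small p and the same direction in both sets. Such separation follows in part from that choice and is not separate support, here and in the next paragraph. AT5G44585, also of no stated function, was at 50.2 and 40.9 against 76.5 and 76.4 CPM (0.75 ± 0.21). AT3G21351 was at 35.4 and 21.2 against 56.7 and 45.3 CPM (0.88 ± 0.21).

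ICL, isocitrate lyase of the glyoxylate cycle, was at 6.71 and 1.43 CPM in Col-0 and at 13.3 and 6.04 CPM in K48M (1.34 ± 0.39). CBL1, a calcium sensor, was at 5.26 and 5.38 against 11.6 and 9.49 CPM (0.97 ± 0.29), with both K48M libraries above both Col-0 libraries. The glutaredoxin gene AT3G21460 was at 7.07 and 5.02 against 15.2 and 10.1 CPM (1.06 ± 0.31). LTP2, a lipid transfer protein, was at 494 and 69.2 against 748 and 181 CPM (0.97 ± 0.26), and PDF1.4, a defensin-like protein, at 14.9 and 4.84 against 34.6 and 9.49 CPM (1.12 ± 0.31). ALDH3F1, an aldehyde dehydrogenase, and AT4G32340, a tetratricopeptide repeat protein, differed by 0.63 ± 0.20 and 0.66 ± 0.20. In ICL, LTP2, PDF1.4 and ALDH3F1 the values of the genotypes overlapped, and in LTP2 and PDF1.4 the sets differed more than the genotypes. Of the 11 genes, HSP17.6II included, 10 had a value above 0 in dark polysome RNA and 11 in submerged total mRNA. Some dark values were within their error of 0, as those of PDF1.4 (0.06 ± 0.41) and CBL1 (0.02 ± 0.32). The total values rest on 1 K48M library. No share of all genes above 0 stands beside these counts, and they are not read as support.

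On the lower side the 12 genes with the smallest p had edgeR unadjusted p from 0.00138 to 0.00614 and an adjusted p of 1. AT5G42200, given above, was one of them. EXO, a protein of cell expansion, was at 268 and 250 CPM in Col-0 and at 169 and 141 CPM in K48M (−0.76 ± 0.22). UCC1, a uclacyanin (a copper protein), was at 37.3 and 29.8 against 15 and 21.4 CPM (−0.86 ± 0.25). The pectin methylesterase inhibitor gene AT5G04960 was at 14.3 and 19.5 against 7.09 and 11.6 CPM (−0.87 ± 0.24), and the dirigent-like gene AT3G13650 at 21.6 and 14.7 against 10.3 and 8.41 CPM (−0.94 ± 0.23). In EXO, UCC1, AT5G04960 and AT3G13650 both K48M libraries lay below both Col-0 libraries. The 12 genes were picked in the same way, so this separation, too, is not separate support.

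FBA5, a fructose-bisphosphate aldolase, was at 21.4 and 70.5 CPM in Col-0 and at 8.59 and 43.4 CPM in K48M (−0.93 ± 0.26). CYP710A2, a sterol desaturase, was at 12.5 and 2.87 against 5.37 and 1.51 CPM (−1.11 ± 0.31). The terpenoid cyclase gene AT3G29410 was at 4.17 and 35.1 against 2.58 and 15.3 CPM (−1.03 ± 0.27). In these 3 the sets differed more than the genotypes. The aspartyl protease gene AT1G66180 was at 359 and 455 against 194 and 299 CPM (−0.74 ± 0.22), and the peroxidase gene AT5G19890 at 11.6 and 44.3 against 7.95 and 18.3 CPM (−0.95 ± 0.28). In AT5G19890 the values of the genotypes overlapped. AT1G07740 and AT1G07030 differed by −0.99 ± 0.30 and −0.80 ± 0.25, with dark polysome values of 0.05 and 0.03. Of the 12 genes, 10 had a value below 0 in dark polysome RNA and 10 in submerged total mRNA. The same limits hold for these counts, with no share of all genes beside them and 1 K48M library of total mRNA.

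The 62 genes of the 4-library fit were counted by the gene descriptions, in groups chosen after the calls were seen. Higher, beside 0.168% of all genes, were 8 of 22 heat shock genes, 4 of 15 defensin-like genes, 3 of 65 lipid-transfer family genes and 5 of 89 organelle-encoded genes. The 89 include ribosomal RNA genes, which the 83 tested above leave out. Of the organelle genes, ATCG00120 and ATCG00350 had opposite signs in the library sets. Lower, beside 0.158% of all genes, were 3 of 38 extensin-like genes, 3 of 54 peroxidases, 2 of 3 uclacyanins, 2 of 18 light-harvesting genes and 2 of 65 lipid-transfer family genes. The 32 higher genes had a median of 0.88 and the 30 lower genes one of −0.79. In dark polysome RNA 18 of the 32 lay above 0 (median 0.12) and 27 of the 30 below 0 (median −0.24), beside a median of 0 over all genes. In submerged total mRNA, with 1 K48M library, 23 of the 32 lay above 0 (median 0.42) and 26 of the 30 below 0 (median −0.41). The 23 include ARO1, whose fitted total value of 7.26 has no meaning, since it had 0 reads in every submerged total library of the fit. No share of all genes stands beside these counts. HAK5, a high-affinity potassium transporter, was the lowest of the 62 at 1.27 and 5.74 CPM in Col-0 and 0.215 and 0.431 CPM in K48M, few reads in each library.

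For the difference between polysome and total RNA 0 of 19024 genes were called in edgeR (0%), with 725 (3.81%) below 0.05 before adjustment, 2.41% higher and 1.4% lower. In DESeq2 KIN10 alone passed, as given above. In dark polysome RNA and in submerged total mRNA, too, KIN10 was the 1 gene called between K48M and Col-0 (0.00526% each). Before adjustment 1.63% of genes were below 0.05 in dark polysome RNA and 7.62% in submerged total mRNA, there 3.8% higher and 3.82% lower. Across the 14297 genes with a mean of at least 5 CPM the submerged polysome difference correlated with the dark polysome difference at r = 0.14 and with the submerged total difference at r = 0.17. These are descriptions across genes, which are not independent.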

How the data were processed

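Whole seedlings gave total mRNA and heavy polysome RNA, sequenced on a HiSeq 2000 per the labels' protocols. Deposited by the authors were raw counts of reads, whole numbers for every transcript model, in a total and a unique version, per the file headers. Per the submitters' processing notes the genome was TAIR10. Aligner and strand setting were not given in the sources used here. Lists in a second workbook deposited by the authors were used for their gene identifiers alone.

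Total gene reads of 41660 models were summed to 33592 loci, and 32825 of these matched the TAIR10.1 gene table. The 11 rows without an identifier in each table, at most 0.0084% of reads, were left out. The test was that of edgeR 4.0.16 under R 4.3.3 (glmQLFit and glmQLFTest, TMM factors 0.929 to 1.12 in the 4 libraries), with a term per group and the library set as additive block, on 14 of the 16 libraries of the experiment, with 5 residual degrees of freedom. The 2 K48M total libraries of LTF_GG were left out because their titles and column headers give opposite conditions, so submerged total K48M is 1 library, assumed to vary like the other groups. The filter (filterByExpr, minimum count 10, minimum total 15) left 19024 genes, and Benjamini-Hochberg adjustment ran over them. Standard errors are the log2 difference over the root of F and are not given for values near 0. Log2 ratios of single pairs use a prior count of 2. TMM assumes that most genes do not differ, so a shift of all polysome mRNA would be removed. The block is justified by the data: libraries of 1 set deviated together in each of 15 pairs of groups (r 0.34 to 0.73 over 14670 genes). The series text calls the 2 repeats biological, and p-values measure the spread between these libraries. DESeq2 1.42.0 was an alternative, and the code was tested on simulated data.

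Named genes were KIN10, EIFISO4G1, the genes of smallest p in each direction (12 each with KIN10, mean of at least 5 CPM, same direction in both sets) and the 3 members of highest level in each list; other members and genes are named after their values were seen. The members and lists were chosen with earlier results of these data known.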

Additional observations from a re-analysis of the deposited data

Results flagged for a closer look

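ARO1, an armadillo-repeat protein, was read in the LTF_GG libraries of K48M and in no other of the 16 libraries. It had 105 reads in submerged and 58 in dark polysome RNA of K48M in LTF_GG, and 0 in both ST_FR libraries of those groups and in every Col-0 library of both fractions. The 2 K48M total libraries of LTF_GG, left out of the comparisons because their labels conflict, held 136 and 103 reads, which is why the gene is listed here: the signal appears in libraries outside the comparison and above the Col-0 level of 0. It was named after its values were seen. In the 14-library fit it was not called (edgeR adjusted p = 0.269), and it was called in the fits of the 8 polysome libraries, of the 4 submerged polysome libraries and without a filter on low counts. The cause was not tested.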

How the results depend on the processing

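KIN10 was called in every fit in which it was tested, with a log2 difference from 3.67 to 3.92 when each of the 4 libraries was left out in turn and from 3.78 to 3.80 otherwise. With unique gene reads it had too few reads to be tested, and the count of calls in submerged polysome RNA was 0, as in dark polysome RNA. In submerged polysome RNA the count was 1 in the main fit, 1 without the replicate block, 2 without a filter on low counts, 2 in the fit of polysome libraries only and 62 in the fit of the 4 libraries alone, where the spread rests on 1 residual degree of freedom; it stayed at 1 with each of the 4 libraries left out. The count for the polysome and total difference was 0, and 1 with DESeq2. The count for the submerged and dark difference was 0 in each fit, and blocking changed no call. Leaving out single libraries turned the direction, none of them called, of emb2386 (−0.12 to 0.34), ACO4 (−0.39 to 0.49), AlaAT1 (−0.43 to 0.01), HSP26.5 (−0.24 to 0.50), ADH1 (−0.51 to 0.22), HB1 (−0.92 to 0.64), ACO1 (−0.60 to 0.03), GSTF9 (−0.32 to 0.03), LBD41 (−1.17 to 0.13), BGLU23 (−0.32 to 0.27), AT3G15450 (−0.37 to 0.17), ROF1 (−0.03 to 0.40), KIN11 (−0.34 to 0.27), KING1 (−0.21 to 0.02), HSFA7A (−0.71 to 0.66), TT5 (−0.34 to 0.61), AT4G10270 (−0.55 to 0.14), RPS6A (−0.12 to 0.13), PDC1 (−0.91 to 0.47), SEN1 (−0.15 to 0.70), AT5G02450 (−0.37 to 0.16), RPS6B (−0.16 to 0.03), DIN10 (−0.44 to 0.16), AT5G20290 (−0.22 to 0.13), SUS1 (−0.70 to 0.08), AKINBETA1 (−0.44 to 0.24), PRR5 (−0.24 to 0.76), PHT1;1 (−0.90 to 0.17), TOC1 (−0.19 to 0.44), ATCG00120 (−2.52 to 3.66), ATCG00340 (−4.23 to 4.51), ATCG00350 (−3.65 to 4.52), ATCG00470 (−0.96 to 0.55), ATCG00490 (−4.49 to 5.06). Other settings turned it for EIF3H to 0.77 (unique gene reads); for HSFA7A to −0.03 (no replicate block, 4 submerged polysome libraries only) and −0.01 (polysome libraries only); for RPS6A to −0.06 (no replicate block) and −0.01 (DESeq2, DESeq2 size factors in edgeR, all 16 libraries by column headers); for RPS6B to 0.01 (unique gene reads). Of 93 genes named besides KIN10, 59 kept their direction with each library left out, and 31 of these moved by over 1.5 times, as HSP17.6A (0.47 to 1.23), HSP23.6-MITO (0.30 to 1.3), UCC1 (−1.34 to −0.45), LHCB1.3 (−0.82 to −0.25), LHCB2.3 (−1.32 to −0.16), VSP2 (−1.62 to −0.57), TT4 (−1.26 to −0.12) and PAB2 (−0.91 to −0.25) did. The cause was not tested. List medians ran from 0.52 to 0.62 for heat shock genes and from −0.56 to −0.20 for photosynthesis genes over all fits, and the hypoxia-induced list ran from −0.48 to 0.14. At this depth and with 2 libraries a group, differences under a doubling were within the 95% interval of many genes.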
